A study of Mus musculus with 8 samples.

Results

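The genes described here are the 9 that carry out or mark the building of a fluid-filled cavity in the mouse embryo: Atp1b1, a beta subunit of the Na+/K+-ATPase, the aquaporins Aqp3, Aqp8, Aqp9 and Aqp11, the claudins Cldn4, Cldn6 and Cldn7, and Tjp1, which encodes the tight junction plaque protein ZO-1. They were chosen by name as pump, water channel and junction genes, with earlier results of these data known. The deposited tables give FPKM values (fragment counts scaled to gene length and library depth) without gene names, so names were assigned from the order and the recovered length of the entries. In this way 23780 of 31899 entries of the 8-cell table and 21817 of 29202 entries of the morula table received a gene. Of the 9 genes, 8 were assigned in both tables. No entry was assigned to Aqp8 in either table, and it has no value here.

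The outer cells of the morula become the trophectoderm, an epithelium that moves fluid into the embryo. The Na+/K+-ATPase on the basolateral side of these cells drives sodium ions inward, aquaporins let water follow, and tight junctions at the apical border keep the fluid from leaking out. A claudin is a membrane protein that forms the seal between neighbouring cells, and ZO-1 ties it to the cytoskeleton. The cavity itself forms after the morula stage.

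RNA-seq was performed on embryos of superovulated 7-week-old ICR mice, an outbred stock, cultured in KSOM medium. Treated embryos received 100 µM TMZ (trimetazidine, an inhibitor of the thiolase that performs the last step of long-chain fatty acid β-oxidation) from the 2-cell stage, and control embryos, labelled WT, received none. The methods of the study also name the zygote stage as the start of inhibitor treatment. Embryos were collected at the 8-cell stage, 70 h after injection of hCG, and as morulae at 78 h. Each of these 4 groups had 2 libraries. The study calls the libraries of a group biologically independent, although its methods name more replicates than the labels hold. The labels tie no library to a mouse or culture, so p-values rest on the spread between these libraries and are not shown to cover that between mice or cultures. The limma fits below also draw the spread of each gene toward that of entries of similar level. An SE is therefore not the spread of a gene's own libraries alone. Both treated columns of the 8-cell table have the same header, and A and B stand for them in what follows. The totals recovered from the values were 32489992 to 64814423 fragments in the 8-cell libraries and 31672356 to 33552381 fragments in the morula libraries. The 2 libraries of a group differed at a typical entry by 0.31 (8-cell control), 0.46 (8-cell TMZ), 0.24 (morula control) and 0.22 (morula TMZ) on the log2(FPKM + 1) scale, as the median absolute difference. The 8-cell TMZ libraries were thus the least alike. Each library pools all cells of its embryos, so that fewer cells of a type and less RNA per cell cannot be told apart.

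Markers of the trophectoderm served to check the stage labels. Krt8, a keratin of the trophectoderm, had 2.72 ± 0.951 FPKM (SD, n = 2) in 8-cell controls and 21.1 ± 2.23 FPKM in morula controls. Cdx2, the transcription factor that defines the lineage, had 0.906 ± 0.280 and 3.97 ± 0.0501 FPKM. Of 9 trophectoderm genes compared on the log2(FPKM + 1) scale, 3 were over 1 higher in morula controls without overlap. Over all genes the share was 3.02%. None of the 9 was lower by that much, beside 5.63% of all genes. The difference was above 0 in 7 of the 9, with a median of 0.31. Klf5 and Yap1 were lower in morulae without overlap, with differences of -0.72 and -0.40. Of 18 markers of cumulus, granulosa and blood cells, 9 were assigned in the 8-cell table and 8 in the morula table, and their summed level was 11.1 to 31.2 and 12.9 to 19.0 FPKM. Amhr2 and Hba-a1 made up most of these sums, and the leukocyte gene Ptprc did not exceed 0.0165 FPKM in any library.

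In GRCm39 the genes called below lie at chr4:41092722-41098183 on the minus strand (Aqp3), chr17:23898223-23901420 on the plus strand (Cldn6) and chr11:69852648-69858711 on the plus strand (Cldn7). The stretch of 250 bases before the RefSeq transcription start of genes on which the results below turn is shown for reference, 5′ to 3′ on the strand of the gene, from the GRCm38.p6 build. Capitals mark matches to GGAATG on either strand, the core bound by TEAD factors, which drive trophectoderm genes. A search for GCCNNNGGC, the AP-2 core, found no match in any of the 11 promoters of the 9 genes. The Aqp3 promoter lies at chr4:41098184-41098433 on the minus strand, that of Cldn4 at chr5:134946935-134947184 on the minus strand, that of Cldn6 at chr17:23679115-23679364 on the plus strand, and the upstream one of the 2 Cldn7 promoters at chr11:69964529-69964778 on the plus strand.
Aqp3: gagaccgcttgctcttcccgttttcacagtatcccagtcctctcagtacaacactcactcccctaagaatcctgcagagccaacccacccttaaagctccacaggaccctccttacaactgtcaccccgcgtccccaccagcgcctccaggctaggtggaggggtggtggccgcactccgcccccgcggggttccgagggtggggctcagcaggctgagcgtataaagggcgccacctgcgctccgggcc
Cldn4: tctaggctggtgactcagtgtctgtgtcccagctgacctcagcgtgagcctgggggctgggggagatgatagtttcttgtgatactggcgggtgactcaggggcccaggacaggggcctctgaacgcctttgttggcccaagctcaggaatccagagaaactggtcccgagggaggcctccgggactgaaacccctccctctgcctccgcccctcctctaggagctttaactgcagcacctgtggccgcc
Cldn6: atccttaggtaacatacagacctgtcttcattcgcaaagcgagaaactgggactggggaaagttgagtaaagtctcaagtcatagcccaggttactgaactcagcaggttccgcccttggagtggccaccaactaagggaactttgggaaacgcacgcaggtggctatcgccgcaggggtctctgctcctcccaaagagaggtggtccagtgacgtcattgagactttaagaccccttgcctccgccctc
Cldn7: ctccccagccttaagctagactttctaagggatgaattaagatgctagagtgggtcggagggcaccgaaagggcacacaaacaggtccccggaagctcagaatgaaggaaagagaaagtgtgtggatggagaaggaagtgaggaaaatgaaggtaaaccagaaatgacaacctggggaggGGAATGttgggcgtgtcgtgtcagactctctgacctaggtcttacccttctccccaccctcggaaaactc
The TEAD core was present in 2 of the 11 promoters, that of Cldn7, where it started 70 bases before the start, and that of Aqp8, where it started 221 bases before it. Of all 32851 RefSeq promoters of this length, 12.64% held the TEAD core and 13.73% the AP-2 core. A match is a description of the letters and not a bound site.

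In control 8-cell embryos Cldn4 had the highest level of the 8 genes and Atp1b1 the lowest. Mean levels ran from Cldn4 with 83.8 ± 0.758 FPKM (SD, n = 2) through Aqp9 with 55.5 ± 9.78, Cldn7 with 29.8 ± 8.09, Aqp3 with 17.3 ± 6.18, Cldn6 with 12.9 ± 2.28, Aqp11 with 3.52 ± 1.21 and Tjp1 with 2.72 ± 0.326 to Atp1b1 with 2.50 ± 0.391 FPKM. The libraries of Aqp3 overlapped those of Cldn6, and the libraries of Aqp11, Tjp1 and Atp1b1 overlapped from one to the next, so these neighbours in the order were not separated. In control morulae Cldn4 was again highest, at 156 ± 6.81 FPKM, followed by Cldn7 at 79.8 ± 46.0, Aqp3 at 40.6 ± 11.8, Aqp9 at 39.3 ± 2.79, Cldn6 at 12.7 ± 0.807, Atp1b1 at 3.34 ± 0.466, Tjp1 at 1.94 ± 0.606 and Aqp11 at 1.85 ± 0.55 FPKM. Cldn7, Aqp3 and Aqp9 overlapped from one to the next there, as did Tjp1 and Aqp11. FPKM is a level per length of the joined exons of a gene, and an expressed transcript can be shorter. The order between genes is therefore approximate. Exons shared with other genes and repeated sequence, given below, also limit it.

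The comparison of control embryos at the 2 stages asked which of the genes changed between the 8-cell stage and the morula. The tables were normalized separately, stage and table cannot be told apart, and the differences are therefore given without a test. Aqp3 and Cldn7 were higher in morulae by more than 1 on the log2(FPKM + 1) scale with no overlap of the libraries, as were 3.02% of the 7943 genes compared, which were assigned in both tables and had a mean of 1 FPKM or more over all 8 libraries, while none of the 8 was lower by that much, as were 5.63% of all. The median difference over all 7943 genes was -0.08. Leaving out each control library in turn gave differences of 0.84 to 1.54 for Aqp3 and 0.67 to 1.90 for Cldn7, and only 1 of the 2 stayed beyond 1 without the second 8-cell control or without either morula control.

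Aqp3, an aquaglyceroporin that passes water and glycerol, had 21.7 and 12.96 FPKM in the 8-cell controls and 48.9 and 32.2 FPKM in the morula controls. Every morula library was above both 8-cell libraries, and the means differed 2.34-fold, a log2 difference of 1.19. This difference was at percentile 98.3 of all genes. Cldn7 had 24.1 and 35.6 FPKM in the 8-cell controls and 47.3 and 112 FPKM in the morula controls. The means differed 2.68-fold, a log2 difference of 1.29 at percentile 98.7, and the second morula library carried much of it.

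Cldn4, a claudin of tight epithelia, had 84.4 and 83.3 FPKM at the 8-cell stage and 152 and 161 FPKM in morulae. Both libraries of each stage lay close together and the stages were far apart, by 1.87-fold or 0.89 on the log2 scale, at percentile 95.8. Cldn6, a claudin of embryonic epithelia, had 11.3 and 14.5 FPKM and then 13.3 and 12.2 FPKM, and it was the only one of the 8 genes whose libraries overlapped between the stages. Its log2 difference was -0.01, and with median-ratio scaling it was 0.11.

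Atp1b1 had 2.22 and 2.78 FPKM at the 8-cell stage and 3.01 and 3.67 FPKM in morulae, a log2 difference of 0.31. The other 3 genes had lower values in morulae. Aqp9, a channel for water and small neutral solutes, went from 62.5 and 48.6 FPKM to 37.3 and 41.2 FPKM, a log2 difference of -0.48. Aqp11, an aquaporin of internal membranes, went from 2.67 and 4.38 FPKM to 1.47 and 2.24 FPKM, a difference of -0.65. Tjp1 went from 2.49 and 2.96 FPKM to 2.37 and 1.51 FPKM, a difference of -0.35. In 7 of the 8 genes the libraries of the stages did not overlap, 4 of them higher and 3 lower in morulae, beside 54.9% of all genes compared.

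**Figure D1:**
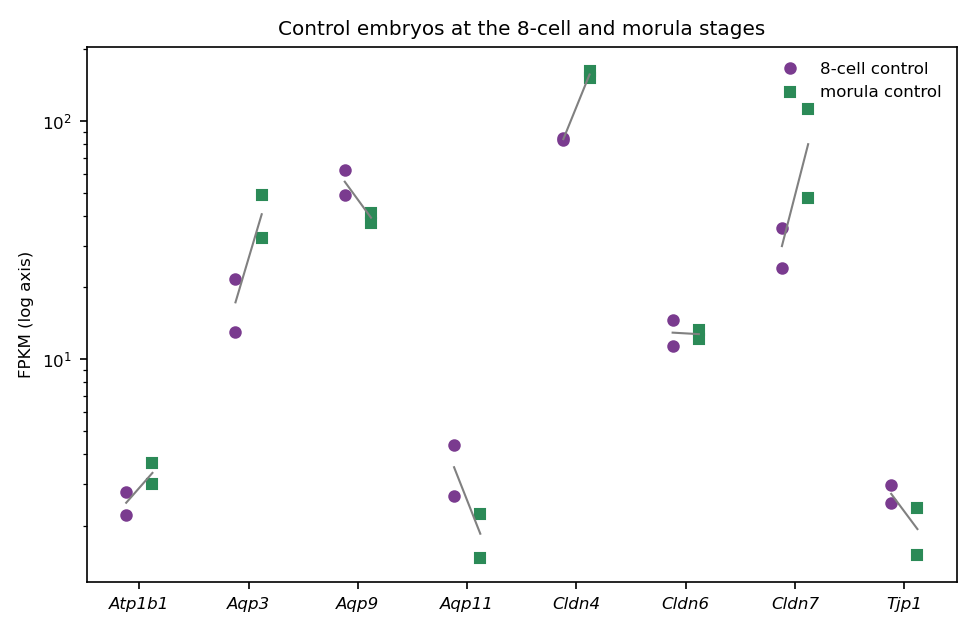
FPKM on a log axis of the 8 assigned genes in control embryos, with circles for the 2 8-cell libraries, squares for the 2 morula libraries and a line between the group means. Aqp3, Cldn4 and Cldn7 lie higher in morulae, Aqp9, Aqp11 and Tjp1 lower, and the libraries of Cldn6 overlap.

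The ratio of the stages was also computed in the treated libraries, without a test. The morula to 8-cell ratio of the means was 1.71 for Aqp3, where it was 2.34 in controls. For Cldn7 it was 1.27 with TMZ, and 2.68 without. For Cldn4 it was 1.37 with TMZ and 1.87 without. For Cldn6 it was 2.12 with TMZ and 0.986 without. Atp1b1 had ratios of 1.60 with TMZ and 1.33 without, and Aqp11 had ratios of 0.374 and 0.526. Aqp9 had ratios of 0.790 with TMZ, where the libraries of the stages overlapped, and 0.707 without. For Tjp1 the ratio was 1.06 with TMZ, where the libraries of the stages overlapped as well, and 0.712 without.

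The effect of TMZ was compared with control at each stage with limma-trend on log2(FPKM + 1), leaving out entries whose mean was under 1 FPKM. A gene was called at an unadjusted P under 0.05 with a log2 fold change beyond 0.5. At the 8-cell stage 1 of the 8 genes was called, Cldn6, which was lower with TMZ, and 4.96% of the 10021 entries tested were called lower and 1.35% higher. The median log2 fold change was -0.40 over the 8 genes and -0.19 over all entries. Under median-ratio scaling the calls over all entries turned from 135 higher and 497 lower to 292 higher and 255 lower. After adjustment over all entries by the Benjamini-Hochberg method no entry passed at this stage with limma, where the smallest adjusted p was 0.154, and none passed with limma-voom on the recovered fragments, although 632 entries had an unadjusted P under 0.05 in the limma-trend fit.

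Cldn6 had 11.3 and 14.5 FPKM in the 8-cell control libraries and 3.24 and 5.72 FPKM in TMZ libraries A and B. Both treated libraries were far below both controls, and the treated mean was 34.6% of the control mean. The log2 fold change was -1.37 ± 0.40 (SE), with a 95% interval of -2.27 to -0.48 and adjusted p = 0.771 in limma. Without the second control library the fold change was -1.21 and the call was lost.

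The other 7 genes did not pass at the 8-cell stage. Cldn4 was at 84.4 and 83.3 FPKM in controls and at 110 and 109 FPKM with TMZ, which placed both treated libraries above both controls. Its log2 fold change was 0.38 ± 0.27 (SE), and the interval ran from -0.22 to 0.99. Its estimate was opposite in sign to that of Cldn6. Cldn7 had a value between them, with 24.1 and 35.6 FPKM in controls, 28.6 and 29.3 FPKM with TMZ and a log2 fold change of -0.02 ± 0.33 (SE). Under median-ratio scaling, which lifted the median fold change of all entries to 0.05, that of Cldn7 was 0.27. With this scaling it was 0.67 for Cldn4, 0.69 for Aqp11 and -1.13 for Cldn6. It was -0.40 for Aqp3, -0.27 for Atp1b1, -0.05 for Aqp9 and -0.42 for Tjp1.

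Aqp3 had 21.7 and 12.96 FPKM in controls and 8.28 and 12.5 FPKM with TMZ, both treated values below both controls. Its log2 fold change was -0.67 ± 0.39 (SE), with an interval of -1.56 to 0.22. Atp1b1 had 2.22 and 2.78 FPKM in controls and 1.501 and 1.56 FPKM with TMZ, again with no overlap, and a log2 fold change of -0.46 ± 0.38 (SE). In all, the groups did not overlap in 4 of the 8 genes, 3 lower and 1 higher with TMZ, beside 37.7% of all entries tested.

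For the remaining genes the 2 treated 8-cell libraries disagreed. Aqp9 had 62.5 and 48.6 FPKM in controls, 33.5 FPKM in library A and 56.1 FPKM in library B. Aqp11 had 2.67 and 4.38 FPKM in controls, 2.94 FPKM in A and 8.67 FPKM in B. Tjp1 had 2.49 and 2.96 FPKM in controls, 0.643 FPKM in A and 2.77 FPKM in B. Leaving out library B gave 4 called genes, which were Aqp3 with a fold change of -0.94, Aqp9 with -0.70, Cldn6 with -1.71 and Tjp1 with -1.18. Leaving out library A gave 2, which were Cldn6 with -1.04 and Aqp11 with 1.12. The calls over all entries rose at the same time, from 632 to 1837 without library B and to 999 without library A. In such a fit the 1 library left in a group is assumed to vary like those of the other group.

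**Figure D2:**
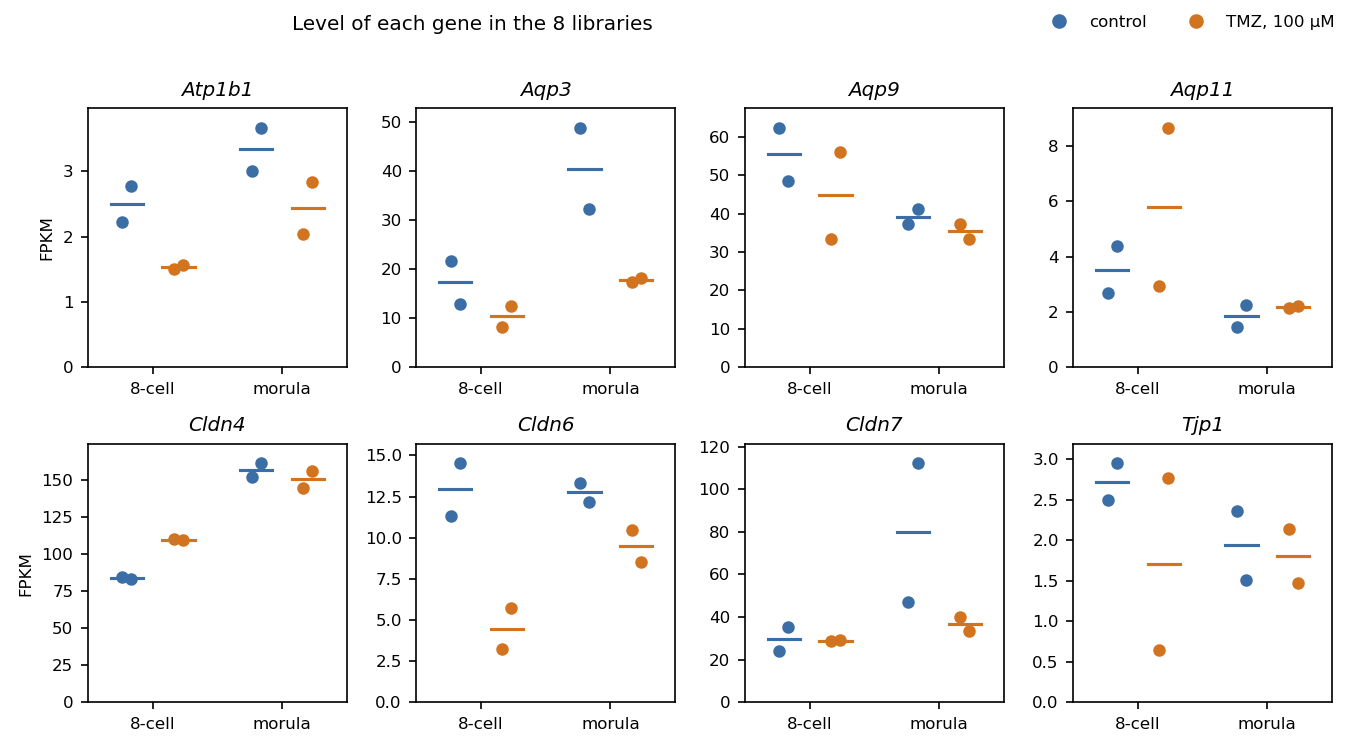
FPKM of each assigned gene in all 8 libraries, in 1 panel per gene with axes from 0. Points are libraries (blue, control and orange, TMZ at 100 µM) and bars are group means. Cldn6 is lower with TMZ at the 8-cell stage, and Aqp3 and Cldn7 are lower with TMZ in morulae.

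In morulae 2 of the 8 genes were called, Aqp3 and Cldn7, both lower with TMZ, and 10.7% of the 9685 entries tested were called lower and 7.16% higher. Aqp3 and Cldn7 were also the 2 genes that were over 1 higher in morula controls than in 8-cell controls. The estimate was below 0 in 7 of the 8 genes. Their median log2 fold change was -0.24, and that of all entries -0.08. Under median-ratio scaling the calls over all entries turned from 693 higher and 1040 lower to 1022 higher and 687 lower. In the unscaled fit, 3 entries in all, none of them among the 8 genes, passed the adjustment over all entries.

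Aqp3 had 48.9 and 32.2 FPKM in control morulae and 17.3 and 18.1 FPKM with TMZ. The treated libraries were less than 1 FPKM apart and both lay well below the lower control, at 43.7% of the control mean. The log2 fold change was -1.12 ± 0.23 (SE), with an interval of -1.68 to -0.56 and adjusted p = 0.161 in limma. It was called at the unadjusted threshold under every alternative setting tried, with fold changes of -1.41 to -0.83, and the fits that leave out a library rest on the assumption that the lone library varies like the other group. Of the 31-base words in the exons of Aqp3, 14.7% also occur elsewhere in the GRCm39 genome, which is the highest share among the 9 genes, and reads from such stretches could have been dropped or shared.

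Cldn7 had 47.3 and 112 FPKM in control morulae and 40.0 and 33.5 FPKM with TMZ. No treated library reached the lower control, but the 2 controls lay further apart than the lower control and the treated libraries. The log2 fold change was -0.98 ± 0.38 (SE), with an interval of -1.89 to -0.06 and adjusted p = 0.234 in limma. Without the second control library it was -0.36, with median-ratio scaling it was -0.85, and in neither fit was it called. It was not called without either treated library, without the level filter or without the trend either. Exons of Elp5 share 15.7% of the exonic bases of Cldn7 in the annotation, those of Nme7 and Gm32391 share 18.1% of those of Atp1b1, and the strand setting of the counting is not given in the sources used here.

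Cldn6 and Atp1b1 had both treated morula libraries below both controls without passing the test. Cldn6 had 13.3 and 12.2 FPKM in controls and 10.5 and 8.49 FPKM with TMZ, a log2 fold change of -0.39 ± 0.20 (SE) with an interval of -0.88 to 0.09. Atp1b1 had 3.01 and 3.67 FPKM in controls and 2.04 and 2.84 FPKM with TMZ, a fold change of -0.34 ± 0.23 (SE) with an interval of -0.90 to 0.22. Together with Aqp3 and Cldn7 this made 4 of the 8 genes in which the groups did not overlap, beside 55.6% of all entries tested.

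The last 4 genes had overlapping groups in morulae. Cldn4 had 152 and 161 FPKM in controls and 145 and 156 FPKM with TMZ, a log2 fold change of -0.06 ± 0.15 (SE) with an interval of -0.41 to 0.30. Aqp9 had 37.3 and 41.2 FPKM in controls and 37.5 and 33.3 FPKM with TMZ, a fold change of -0.15 ± 0.17 (SE). Aqp11 had 1.47 and 2.24 FPKM in controls and 2.13 and 2.21 FPKM with TMZ, a fold change of 0.16 ± 0.24 (SE). Tjp1 had 2.37 and 1.51 FPKM in controls and 2.14 and 1.48 FPKM with TMZ, a fold change of -0.06 ± 0.26 (SE). Median-ratio scaling turned the sign for Cldn4, to 0.07, and for Tjp1, to 0.02. Whether the change of Cldn7 differed from that of Cldn4 was not tested.

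**Figure D3:**
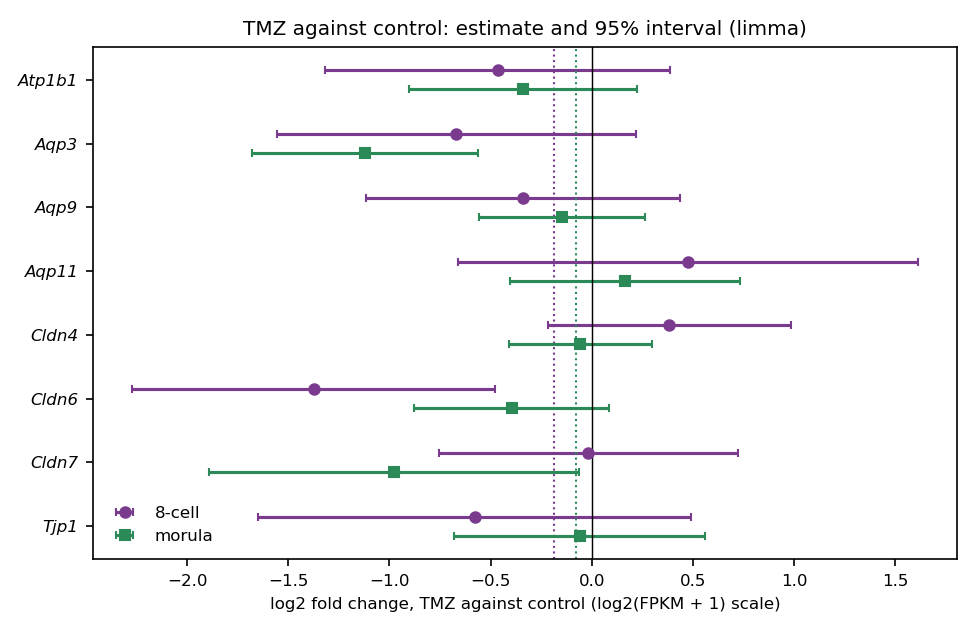
Log2 fold change of TMZ against control for each assigned gene, as limma estimate with its 95% interval, for 8-cell embryos (circles) and morulae (squares). Dotted lines mark the median of all entries tested at each stage, -0.19 and -0.08. The intervals of Cldn6 at the 8-cell stage and of Aqp3 and Cldn7 in morulae lie below 0.

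The difference between the stages in the effect of TMZ was tested with all 8 libraries in 1 limma fit over 7943 genes, where 8.06% of the genes passed an unadjusted P under 0.05 with a difference beyond 0.5. Of the 8 genes, Cldn6 passed. Its fold change was less negative in morulae by 0.98 ± 0.42 (SE), with an interval of 0.04 to 1.92 and adjusted p = 0.600 in limma. The call did not hold under median-ratio scaling, where the difference was 0.82, or without 6 of the 8 libraries when each was left out in turn. For Cldn7 the difference was -0.96 ± 0.53 (SE) with an interval of -2.16 to 0.23, and for Cldn4 it was -0.44 ± 0.26 (SE) with an interval of -1.02 to 0.14, so a difference between the stages was not shown for either. The value for Cldn7 rested on the morula controls, since it was -1.58 and called without the first of them and -0.35 and not called without the second. For Tjp1 the difference was 0.52 ± 0.56 (SE), and it was 1.12 and called without 8-cell TMZ library B. For Aqp3 the difference was -0.45 ± 0.46 (SE), and the fall in morulae was not shown to differ from the lower values at the 8-cell stage. No gene passed the adjustment over all genes in this limma fit, although 640 passed the unadjusted threshold.

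The partners of these genes were described from lists of related genes. Each count of called list genes, here and below, stands beside the shares over all entries tested. These were 4.96% lower and 1.35% higher at the 8-cell stage, and 10.7% lower and 7.16% higher in morulae. Of Na+/K+-ATPase subunits and their FXYD regulators, a list that includes Atp1b1 itself, 10 were assigned in the 8-cell table and 9 in the morula table. Of these, 4 of 15 listed genes had a mean above 1 FPKM in each table, and none was called in limma, all 4 with estimates below 0 at the 8-cell stage and 3 of 4 in morulae. Under median-ratio scaling 1 was called higher in morulae, Atp1b3. The median log2 fold change was -0.41 at the 8-cell stage, beside -0.19 for all entries, and -0.25 in morulae, beside -0.08. Atp1b3, another beta subunit, was far more abundant than Atp1b1, with 288 and 196 FPKM in 8-cell controls, 177 and 264 FPKM with TMZ, 88.9 and 118 FPKM in control morulae and 128 and 163 FPKM with TMZ. It had a lower level in control morulae than in 8-cell controls by 1.21 on the log2 scale, opposite in direction to Atp1b1. Fxyd4, a small regulator of the pump, had 12.6 and 11.03 FPKM in control morulae and 8.71 and 12.5 FPKM with TMZ.

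Of 20 other genes of ion transport, 4 were tested at the 8-cell stage, with none called. In morulae 6 were tested, with 1 called in each direction, beside 10.7% of all entries called lower and 7.16% higher. Under median-ratio scaling 2 were called higher and 1 lower in morulae. Nherf1, a scaffold of apical transporters, fell from 5.61 ± 0.600 to 2.59 ± 0.656 FPKM (SD, n = 2) in morulae, a log2 fold change of -0.89. Nherf2, a related scaffold, rose from 0.772 ± 0.0236 to 2.48 ± 0.840 FPKM, a change of 0.95. The Na+-K+-Cl- cotransporter Slc12a2 was the most abundant of this list. Without median-ratio scaling it was not called at either stage, with fold changes of -0.06 and 0.49. The list medians were -0.41 and -0.09.

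Of 12 aquaporins, 5 were assigned in the 8-cell table and 4 in the morula table, and Aqp3, Aqp9 and Aqp11 were those with a mean of 1 FPKM or more. Aqp7, another aquaglyceroporin, had 0.253 FPKM or less in every library, and Mip, the lens aquaporin, had 0.0504 FPKM or less at the 8-cell stage. None of the 3 was called in 8-cell embryos, and Aqp3 was called lower in morulae, as were 10.7% of all entries. Of 24 claudins, 14 and 15 were assigned, and of these Cldn4, Cldn6 and Cldn7 had a mean of 1 FPKM or more. Cldn34a had at most 1.98 FPKM. Cldn10 had 1.13 and 0.966 FPKM in control morulae and 0.600 and 1.11 FPKM with TMZ. The summed level of the assigned claudins was 121 and 136 FPKM in 8-cell controls, 143 and 148 FPKM with TMZ, 215 and 290 FPKM in control morulae and 197 and 201 FPKM with TMZ. Cldn4 was the main part of that sum in every library.

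Tight junction genes other than claudins, a list that includes Tjp1 itself, comprised 14 tested of 32 at each stage. Of these, 1 was called lower at the 8-cell stage, where 4.96% of all entries were called lower. In morulae 2 were called lower and 1 higher, where 10.7% of all entries were called lower and 7.16% higher. The list medians were -0.11 and -0.22. Ybx3, a DNA and RNA binding protein that associates with ZO-1 at junctions, had 51.0 and 64.2 FPKM in 8-cell controls and 13.04 and 20.5 FPKM with TMZ, a log2 fold change of -1.75 ± 0.34 (SE) with adjusted p = 0.620 in limma. In morulae it had 61.0 and 45.3 FPKM in controls and 34.8 and 22.0 FPKM with TMZ, a fold change of -0.90 ± 0.26 (SE). Ybx3 was the only gene of these lists called in the same direction at both stages. Pard6b, a polarity protein that organises the apical domain, fell from 6.10 ± 0.155 to 3.02 ± 0.351 FPKM in morulae. Arhgef2, a protein bound to junctions and microtubules, rose from 1.06 ± 0.463 to 5.91 ± 3.98 FPKM, with 8.73 FPKM in one treated library and 3.09 FPKM in the other. Pard6a, the second most abundant of the list, was not called at either stage.

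Regulators and markers of the trophectoderm were not called at the 8-cell stage, where 8 of 20 were tested, and 6 of 9 tested were called lower in morulae, beside 10.7% of all entries. In morulae their median log2 fold change was -0.67, and Krt8 had 19.5 and 22.7 FPKM in controls and 11.2 and 6.43 FPKM with TMZ, a fold change of -1.21 ± 0.27 (SE) with adjusted p = 0.167 in limma. Hand1, a trophoblast factor, fell by 1.01, Cdx2 by 0.80 and Wwtr1, the coactivator TAZ that works with TEAD factors, by 0.71 on the log2 scale. Klf5 had 52.6 and 50.8 FPKM in control morulae and 38.3 and 26.7 FPKM with TMZ, and Krt18, the keratin partner of Krt8, had 58.4 and 41.3 FPKM and then 40.4 and 44.8 FPKM. Of the inner cell mass list 3 of 5 were called lower in morulae, beside the same 10.7%. Under median-ratio scaling the counts were 5 of 9 for the trophectoderm and 2 of 5 for the inner cell mass. Pou5f1, the factor OCT4, fell by 1.25, Nanog by 0.98 and Fgfr2 by 0.55, and Klf2 had a fold change of -0.19. At the 8-cell stage none of 5 was called. Oocyte and 2-cell transcripts had medians of -0.17 and -0.08, near those of all entries, with Zscan4d called higher at the 8-cell stage and Zbed3 higher in morulae. Dppa3, a maternal factor and the most abundant of them, had 10695 and 14999 FPKM in 8-cell controls, 19500 and 14607 FPKM with TMZ, 10840 and 13228 FPKM in control morulae and 14146 and 17623 FPKM with TMZ. Khdc3, a protein of the subcortical maternal complex, had 29.1 and 32.7 FPKM in 8-cell controls, 23.7 and 29.7 FPKM with TMZ, 107 and 98.5 FPKM in control morulae and 93.1 and 101 FPKM with TMZ. The cumulus and blood sum was 31.2 and 20.6 FPKM in 8-cell controls and 11.1 and 16.2 FPKM with TMZ, with Amhr2 called lower, and the part of these cells in the 8-cell result for Cldn6 was not tested.

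**Figure D4:**
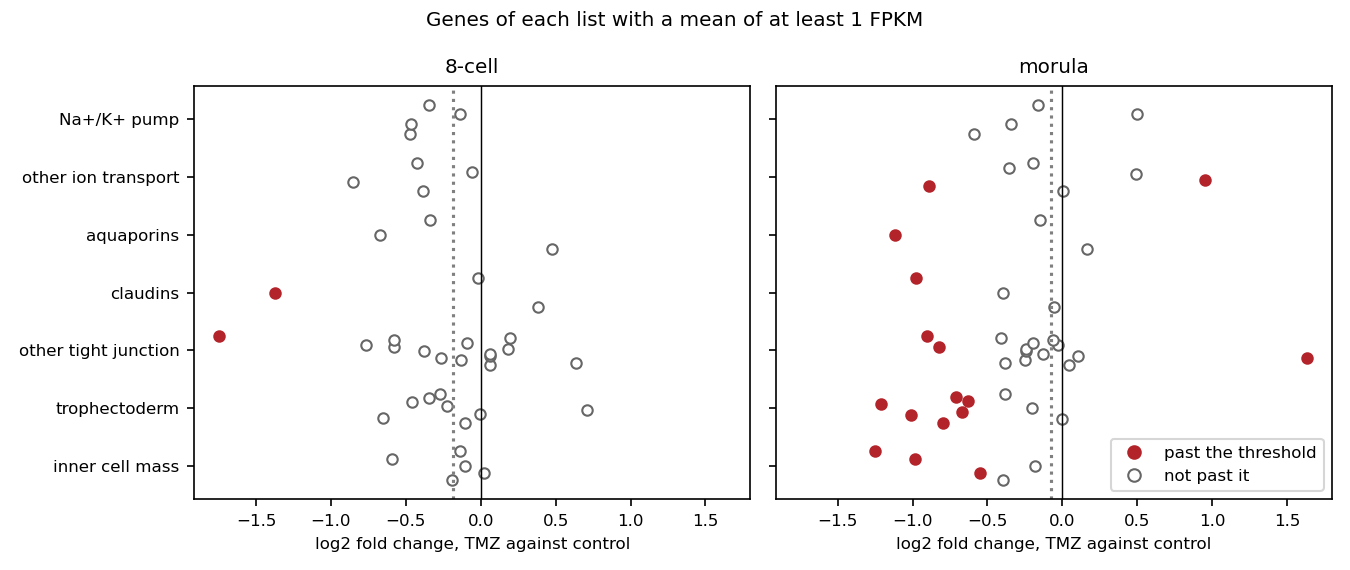
Log2 fold change of TMZ against control for the genes of 7 lists that passed the level filter, at the 8-cell stage (left) and in morulae (right). Filled points passed an unadjusted P under 0.05 with a fold change beyond 0.5, and dotted lines mark the median of all entries. No trophectoderm gene is called at the 8-cell stage and 6 are called lower in morulae, and Ybx3 is the leftmost point at the 8-cell stage.

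Across the 8 libraries the genes did not share a single pattern. The Pearson r of log2(FPKM + 1) was 0.79 between Atp1b1 and Cldn6, 0.75 between Atp1b1 and Aqp3 and 0.72 between Atp1b1 and Cldn7, while it was -0.71 between Aqp9 and Cldn4. These are descriptions over 8 libraries that share the groups and the tables. Among all genes assigned in both tables, the pair most like Aqp3 was Ptpn6 with r = 0.99 and Coasy with 0.98. Cldn6 was most like Nudc-ps1 and Gas8, both with 0.98, and Cldn7 most like Cartpt with 0.99 and Pam16 with 0.95. Cldn4 was most like Nudt2 with 0.97 and Gm9703 with 0.96, Atp1b1 most like Tmem97 and Net1, both with 0.96, and Aqp9 most like Kpnb1 with 0.99 and Tmc4 with 0.98. Aqp11 was most like Gm43511 and Prame62, both with 0.97, and Tjp1 most like Gm48106 with 0.98 and mt-Nd3 with 0.97.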

How the data were processed

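Embryo libraries were made with a full-length mRNA amplification kit and sequenced. The authors trimmed reads with fastp 0.23.4, aligned them to GRCm39 with STAR 2.7.9a, counted with featureCounts 2.0.6 (versions per the submitters' processing notes) and deposited FPKM values, 1 table per stage, each normalized on its own. The annotation release and the strand setting are not given in the sources used here. Entries carry no gene names. Because FPKM values are whole fragment counts divided by length and depth, the total per library and the length of each entry were recovered. All values came out whole within 0.001 of a fragment. A recovered length is the smallest that makes the counts whole, and for Cldn7 it was 974 in the 8-cell table and 1948, the annotated length, in the morula table. Lengths were aligned in Ensembl identifier order to joined exon lengths of GENCODE vM39 (transcript numbers up to 250000), and a gene was kept at a posterior of at least 0.95. Lengths of Aqp9, Aqp11 and Tjp1 were near and not equal to the annotated ones. In a check with 2000 decoy lengths, the share of false names scaled to all genes was 0.398% and 0.831% in the 8-cell and morula tables. These shares rest on 1 and 2 entries given to a decoy and are therefore rough. When genes were taken out of the reference, 19 and 22 of their 500 entries were given another gene.

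The members and lists were chosen with earlier results of these data known. TMZ was compared with control in each table with limma 3.58.1 (R 4.3.3, limma-trend, log2(FPKM + 1), leaving out entries whose mean was under 1 FPKM). Calls needed P under 0.05 before adjustment and a log2 fold change past 0.5, with Benjamini-Hochberg adjusted values beside it. The fit was tested on simulated data. Fold changes on this scale understate changes of low genes. Named genes were the 9 members, from each list those past the threshold (at most the 4 with the largest change) and the 2 with the highest mean, and the 2 genes most correlated with each member. Some genes that the rule names are not reported here. Promoters came from RefSeq (GRCm38.p6), matched by symbol for all 9 members.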

Additional observations from a re-analysis of the deposited data

Results flagged for a closer look

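The estimated effect of TMZ on Cldn6 differed between the stages by 0.98 (log2 fold change in morulae minus that in 8-cell embryos, limma with all 8 libraries), with a 95% interval of 0.04 to 1.92 and adjusted p = 0.600. Of all genes, 8.06% passed the same unadjusted threshold. The call was lost under median-ratio scaling, with a difference of 0.82, and without most of the libraries when each was left out in turn. The log2 fold change was -1.37 in 8-cell embryos and -0.39 in morulae, and both treated libraries were below both controls at each stage. Groups of 2 libraries are too small for a check of single outlying samples.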

How the results depend on the processing

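Aqp3 in morulae kept its direction and its call under every alternative. Leaving out a library leaves 1 in that group, which is then assumed to vary like the other group. At a mean of at least 5 FPKM, 281 entries were called at the 8-cell stage and 1058 in morulae, beside 632 and 1733, since fewer entries are tested. Limma-voom on the recovered fragments called 444 and 1916. Leaving out 1 library gave 276 to 1837 called entries and 0 to 4 called members at the 8-cell stage, and 786 to 1869 entries and 1 to 2 members in morulae. Called members in morulae fell from 2 to 1, with Cldn7 lost, without a filter, with median-ratio scaling and without the trend. In the stage comparison a pseudocount of 0.1 gave 1230 genes beyond 1, beside 687, leaving out a library gave 1 to 2 members, and Cldn4 passed 1 with scaling, at 1.02. Members whose TMZ effect differed between stages numbered 0 with scaling and 0 to 2 without a library.

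The estimates that changed sign had not been called in the comparison concerned. The Cldn6 difference between control stages, -0.011, was 0.11 with scaling and -0.18 to 0.16 without 1 library. Among the estimates of TMZ against control, those that changed sign with scaling were Cldn7 at the 8-cell stage (0.27), and Cldn4 (0.069) and Tjp1 (0.020) in morulae. Without 1 library the 8-cell estimates ranged from -0.29 to 0.25 for Cldn7, -0.70 to 0.025 for Aqp9, -1.18 to 0.020 for Tjp1 and -0.17 to 1.12 for Aqp11, the morula estimates from -0.033 to 0.36 for Aqp11 and -0.27 to 0.15 for Tjp1, and the stage differences of the effect from -0.17 to 0.55 for Aqp9, -0.080 to 1.12 for Tjp1, -0.96 to 0.34 for Aqp11 and -0.044 to 0.29 for Atp1b1. The causes were not tested. A fit with a replicate block, on morula numbers whose deviations correlated at 0.08 over entries, called 1989 entries and 2 members, and the numbers are not shown to pair the libraries. The treated 8-cell libraries carry no number to block on. A posterior of 0.99, or exact lengths alone, changed no call of the members that kept a name. With 2 libraries a group and Atp1b1 at 199 to 379 fragments, small changes are not detectable.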
